A study of Arabidopsis thaliana with 4 samples.

Results

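Leucine, valine and lysine breakdown is represented here by 9 genes, followed across 4 Arabidopsis thaliana arrays that set 3 h of darkness against light in the sfr6 mutant and in wild type. The genes were taken by symbol or locus from the platform's probe-to-gene table, and all 9 were found, each with 1 probe set, among 13513 probe sets that the table pairs with 1 gene. All 9 read above the floor of 22.1 used here for low signals on all 4 arrays, the lowest member signal being 55.3, so every fold below is between measured signals unless a bound is stated. No member was lost to the filter on low values. The 9 genes were chosen with earlier results of these data known. Shares of all probe sets given beside them are therefore description, not independent support.

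The enzymes form a route by which a plant can draw energy from protein when sugar is short. Isovaleryl-CoA dehydrogenase (IVD) oxidises the isovaleryl-CoA made from leucine, methylcrotonyl-CoA carboxylase (a biotin-carrying subunit, MCCA, and a partner subunit, MCCB) adds carbon dioxide to the product, and hydroxymethylglutaryl-CoA lyase (AT2G26800) splits the last intermediate into acetyl-CoA and acetoacetate. ALDH6B2 is a methylmalonate-semialdehyde dehydrogenase of valine breakdown, AT4G33150 is the bifunctional lysine-ketoglutarate reductase/saccharopine dehydrogenase that opens lysine breakdown, and D2HGDH oxidises D-2-hydroxyglutarate, which can arise from lysine. Electrons from IVD and D2HGDH pass to the electron transfer flavoprotein, of which ETFBETA is the beta subunit, and then through its oxidoreductase ETFQO to ubiquinone in the respiratory chain. Arabidopsis plants that lack IVD or ETFQO are known to senesce early in prolonged darkness.

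The groups were sfr6 in dark, sfr6 in light, wild type (Col-0) in dark and wild type in light, with 1 ATH1 array each and so no replicate. The sfr6 mutant came from EMS mutagenesis of Col-0, and lines of that kind can carry further mutations. Plants grew for 7 days on agar and spent 24 h in a cabinet at 240 microEinsteins on a cycle of 16 h light and 8 h dark. They were then wrapped in foil or left in the light for 3 h. SFR6, which encodes the MED16 subunit of the Mediator complex of RNA polymerase II, is not analysed here, so the genotype labels were not checked against it.

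The labels name cell culture as the tissue, yet the treatment was given to plants on plates. Of 10 green-tissue markers 3 had a named probe set, all LHCB4 antenna genes, with LHCB4.1 at 2747 to 3695 on the 4 arrays. Of 6 root markers 3 were named: PYK10 read 1823 to 3004, EXPA7 read 23.3 to 54.6, and EXPA18 was over the floor on both light arrays, at 42.2 in sfr6 and 36.2 in wild type, and under it on both dark arrays. Signal for 25S ribosomal RNA, from a control probe set, was 1321 in sfr6 dark and 120 in sfr6 light, and 364 in wild-type dark and 122 in wild-type light. The ratio of 3' to 5' GAPDH control signal lay between 1.09 and 1.35 for one probe pair and between 0.881 and 0.989 for the other. Of the 3 root markers PYK10 and EXPA18 fell in the dark, and LHCB4.3 fell among the 3 antenna genes (limma adjusted p 0.0083, 0.013 and 0.034). Summed over the 3 genes, the root markers read 1865 in sfr6 dark and 2659 in sfr6 light, and 2123 in wild-type dark and 3069 in wild-type light. The antenna genes summed to 5431 in sfr6 dark and 5681 in sfr6 light, and to 6459.7 in wild-type dark and 7024 in wild-type light. The part of any of these measures in the results was not tested. In whole-plant RNA, fewer cells that express a gene and less RNA per cell cannot be told apart.

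The first question is how the route responds to 3 h of darkness. Of the 9 genes, 6 rose: MCCA, MCCB, IVD, ALDH6B2, ETFQO and AT4G33150, by 3.65-fold to 16.2-fold in sfr6 and by 3.75-fold to 8.73-fold in wild type. ETFBETA, AT2G26800 and D2HGDH did not pass the test, and each was within 1.47-fold of its light signal in both genotypes. Those that rose include the dehydrogenase and both carboxylase subunits of leucine breakdown and the ubiquinone oxidoreductase, and those not called include the lyase that ends leucine breakdown and the flavoprotein's beta subunit. Whether the responses of these genes differ from each other was not tested.

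The test was the average dark effect in limma's additive model of genotype and darkness on log2 signals, with Benjamini-Hochberg adjustment over 15121 probe sets. By the same test 15.4% of all probe sets were higher in dark and 17.8% lower. The median average effect of the 9 genes was 2.01 on the log2 scale, beside -0.05 over all probe sets. At least 2-fold higher in dark in both genotypes were 6 of 9 genes, beside 4.5% of all probe sets. Both dark signals lay above both light signals for 8 of the 9 genes and below them for D2HGDH, while 28.3% of all probe sets had both above and 31.5% both below. Because the genes were chosen with earlier results of these data known, these contrasts with all probe sets are not independent support for a dark response. The fit has 1 residual degree of freedom, from the difference between the genotypes' responses.

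**Figure D1:**
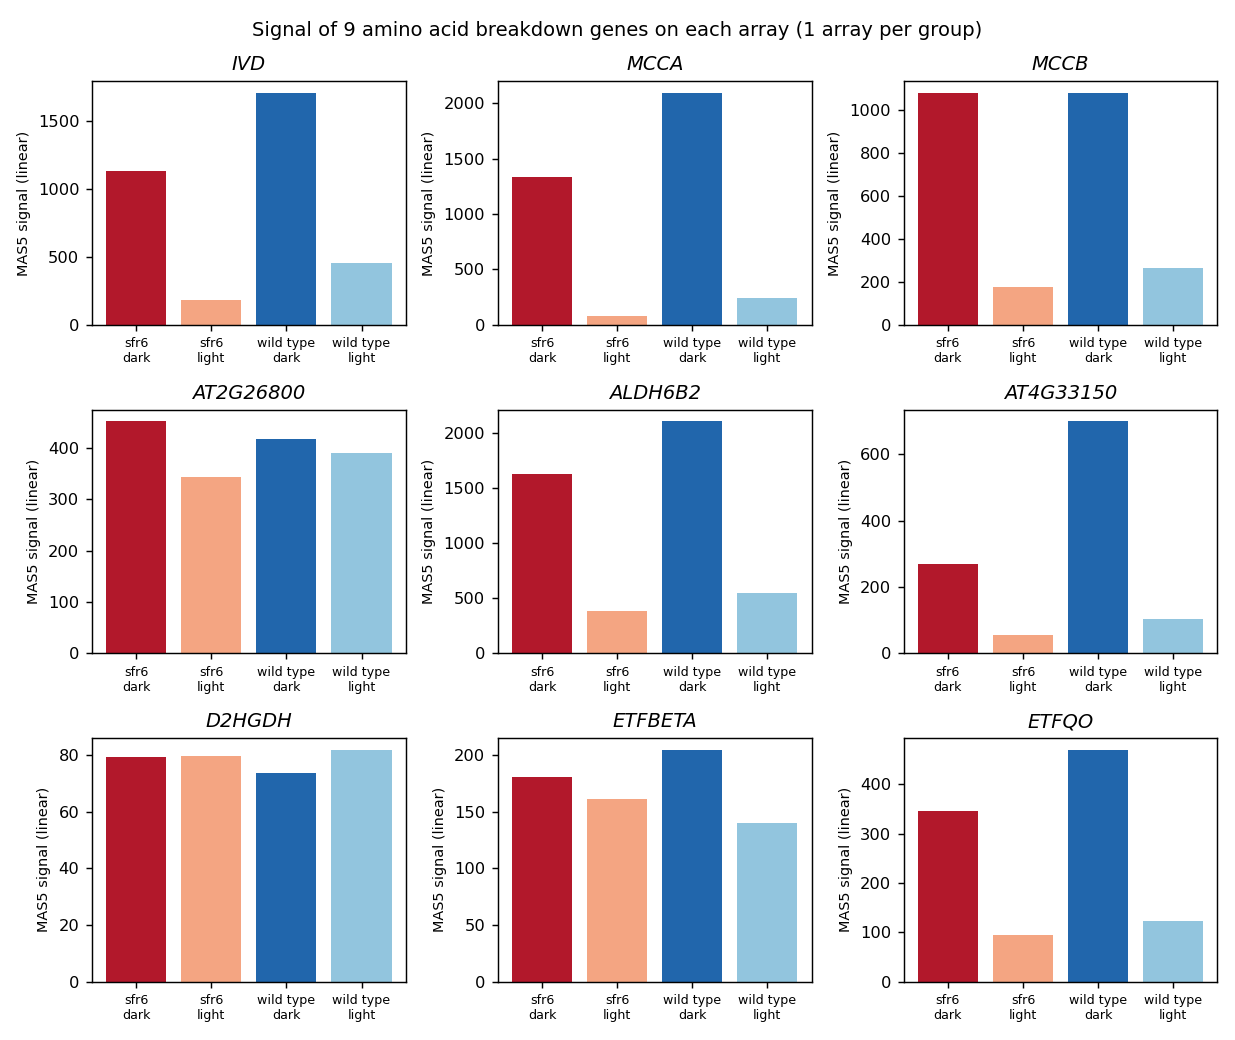
MAS5 signal (linear scale, from 0) of each gene on the 4 arrays, 1 bar per array, with a separate vertical scale per gene. The dark bars of IVD, MCCA, MCCB, ALDH6B2, AT4G33150 and ETFQO stand well above the light bars in both genotypes. All 4 bars of D2HGDH, at 73.6 to 81.9, are nearly level.

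In leucine breakdown, MCCA had the largest response of the 9. Its signal was 1330.2 in sfr6 dark and 82.3 in sfr6 light, and 2095 in wild-type dark and 239.9 in wild-type light. Both dark signals were far above both light signals, and the lowest of the 4 was that of sfr6 in light. The average log2 effect was 3.57 ± 0.21 (SE; limma adjusted p 0.000286), the 20th largest rise among the 15121 probe sets. Taken by genotype, the dark response of MCCA ranked 12th in sfr6 and 37th in wild type.

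MCCB, which works in the same enzyme as MCCA, read 1079 in sfr6 dark and 177 in sfr6 light, and 1079.9 in wild-type dark and 264 in wild-type light. The dark signals of the genotypes differed by 0.001 on the log2 scale, and the light signal was the lower in sfr6. Its average log2 effect was 2.32 ± 0.15 (limma adjusted p 0.000379). The response of MCCA exceeded that of MCCB by 1.41 on the log2 scale in sfr6 and by 1.09 in wild type, a difference that was not tested. Because it compares responses, not levels, the difference does not show unequal amounts of the subunits.

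IVD, the step before the carboxylase, read 1138 in sfr6 dark and 179.5 in sfr6 light, and 1712 in wild-type dark and 456 in wild-type light. Its dark signals did not overlap its light signals, and both sfr6 signals lay below the wild-type signal of the same light condition. The fold was 6.34 in sfr6 and 3.75 in wild type, with an average log2 effect of 2.29 ± 0.18 (limma adjusted p 0.00063).

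AT2G26800, the lyase, read 452 in sfr6 dark and 342 in sfr6 light, and 416 in wild-type dark and 390.5 in wild-type light. All 4 signals lay close together, although both dark ones were the higher. The average log2 effect of 0.25 ± 0.12 did not pass (limma adjusted p 0.17). The MCCA response exceeded that of the lyase by 3.61 on the log2 scale in sfr6 and by 3.03 in wild type.

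In valine breakdown, ALDH6B2 read 1631 in sfr6 dark and 388 in sfr6 light, and 2112 in wild-type dark and 548 in wild-type light. Its response was nearly the same size in the genotypes, 4.202-fold in sfr6 and 3.85-fold in wild type. The average log2 effect of 2.01 ± 0.10 had the smallest adjusted p of the 9 genes (limma, 0.000206).

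In lysine breakdown, AT4G33150 read 269 in sfr6 dark and 55.3 in sfr6 light, and 699.9 in wild-type dark and 102 in wild-type light. The wild-type dark signal stood far above the other 3, and each sfr6 signal was below its wild-type counterpart. The gene rose 4.87-fold in sfr6 and 6.84-fold in wild type, with an average log2 effect of 2.53 ± 0.16 (limma adjusted p 0.000339). Its response ranked 136th of 15121 in sfr6 and 64th in wild type.

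D2HGDH, placed further along lysine breakdown, read 79.1 in sfr6 dark and 79.8 in sfr6 light, and 73.6 in wild-type dark and 81.9 in wild-type light. The largest response was the 1.11-fold lower dark signal in wild type. The average log2 effect was -0.08 ± 0.17 (limma adjusted p 0.74), near the middle of all probe sets.

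Of the electron carriers, ETFQO read 346 in sfr6 dark and 94.7 in sfr6 light, and 470.0 in wild-type dark and 123 in wild-type light. The response was 3.65-fold in sfr6 and 3.82-fold in wild type, the closest match between genotypes among the 6 genes that rose. That order depended on scaling. The log2 response in sfr6 minus that in wild type was -0.11 for ETFQO and 0.07 for ALDH6B2 with median centring. With spike-in centring these values were -0.13 and 0.06. The average log2 effect was 1.90 ± 0.12 (limma adjusted p 0.000339).

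ETFBETA, whose protein hands electrons to ETFQO, read 181 in sfr6 dark and 161 in sfr6 light, and 205 in wild-type dark and 139.6 in wild-type light. Its dark signals were higher than its light signals by 1.12-fold in sfr6 and 1.47-fold in wild type. The average log2 effect of 0.36 ± 0.15 did not pass (limma adjusted p 0.12). The partner alpha subunit, ETFALPHA, read 92.6 in sfr6 dark and 76.2 in sfr6 light, and 92.1 in wild-type dark and 77.5 in wild-type light, and did not pass either, at 0.26 ± 0.16 (limma adjusted p 0.25). The response of ETFQO exceeded that of ETFBETA by 1.71 on the log2 scale in sfr6 and 1.38 in wild type.

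**Figure D2:**
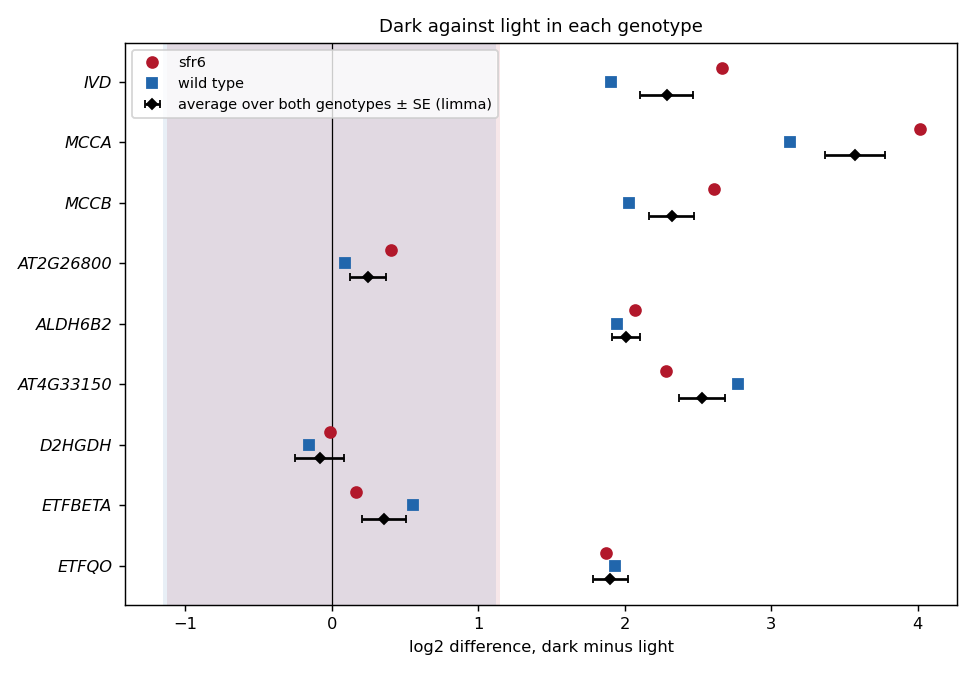
Log2 difference of dark minus light for each gene in sfr6 (circles) and in wild type (squares), with the limma average and its SE (diamonds); shading spans the 5th to the 95th percentile of all 15121 probe sets in each genotype. The 6 genes that rose lie at 1.87 or more, right of the shading in both genotypes, and AT2G26800, D2HGDH and ETFBETA lie within it.

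A further question is whether the dark response of these genes differed between the genotypes. The larger fold was in sfr6 for MCCA, IVD and MCCB, the leucine genes that rose, and in wild type for AT4G33150. The response in sfr6 minus that in wild type was 0.89 for MCCA, 0.76 for IVD and 0.58 for MCCB on the log2 scale. For AT4G33150 it was -0.49, and for ALDH6B2 and ETFQO it was close to 0, at 0.13 and -0.06. The median over the 9 genes was 0.14, beside 0.02 over all probe sets, and 0 of the 9 reached 2-fold in either direction, where 1.08% of all probe sets were at least 2-fold higher and 1.48% lower. This difference has no residual degree of freedom and was not tested.

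For MCCA, IVD and MCCB the larger fold in sfr6 went with a lower light signal there. In dark MCCA was 1.58-fold and IVD 1.51-fold lower in sfr6 than in wild type, and MCCB was nearly equal. In light the same genes were 2.91-fold, 2.54-fold and, for MCCB, 1.49-fold lower in sfr6. All 6 genes that rose read lower in sfr6 in light, but 4 had the larger fold in sfr6 and 2 the smaller. Those with the smaller fold were AT4G33150 and ETFQO, 1.85-fold and 1.30-fold lower in sfr6 in light. The response and the light difference share the sfr6 and wild-type light arrays, so they are not separate measurements.

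The remaining question is the level in sfr6 relative to wild type. AT4G33150 was lower in sfr6 by the test, 2.60-fold in dark and 1.85-fold in light, with an average log2 effect of -1.13 ± 0.16 (limma adjusted p 0.041). MCCA and IVD had average effects of similar size that missed the threshold, -1.10 ± 0.21 and -0.97 ± 0.18 (limma adjusted p 0.064 for each). By that test 1 of 9 genes was lower and 0 higher, where 0.86% of all probe sets were lower and 0.417% higher; at an unadjusted p under 0.05, 5 of the 9 passed, all with negative effects, beside 8.47% of all probe sets. The choice of the genes with earlier results known limits this contrast too. The genotype calls depended on the setting: under 3 alternatives MCCA, IVD and AT4G33150 were all called lower, and under 3 others none was.

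ALDH6B2 had an average effect of -0.44 ± 0.10 and ETFQO one of -0.41 ± 0.12, neither of which passed (limma adjusted p 0.085 and 0.14). MCCB stood at -0.29 ± 0.15 (limma adjusted p 0.36). For the genes whose dark effect was not called, ETFBETA, D2HGDH and AT2G26800, the average genotype effects were 0.01, 0.03 and -0.04, and their signs changed with the scaling.

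Counted without a test, 7 of the 9 genes read lower in sfr6 in dark and 8 in light, beside 40.2% and 45.9% of all probe sets, where those at the floor in both genotypes count as not lower. MCCB in dark was the smallest of these, at -0.001 on the log2 scale, and it turned positive with quantile normalization (0.04) and with spike-in centring (0.12). D2HGDH in light turned positive with spike-in centring. The 6 genes that rose in the dark were also the 6 that read lower in sfr6 in both conditions, beside 25.5% of all probe sets. The median log2 difference of the 9 genes was -0.37 in dark and -0.50 in light, against 0.02 and 0.01 over all probe sets. At least 2-fold lower were AT4G33150 in dark, beside 1.54% of all probe sets, and MCCA and IVD in light, beside 1.67%. Spike-in centring moved all sfr6 values up by 0.12 in dark and 0.19 in light, and the 3 genes kept their direction under it in both conditions.

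**Figure D3:**
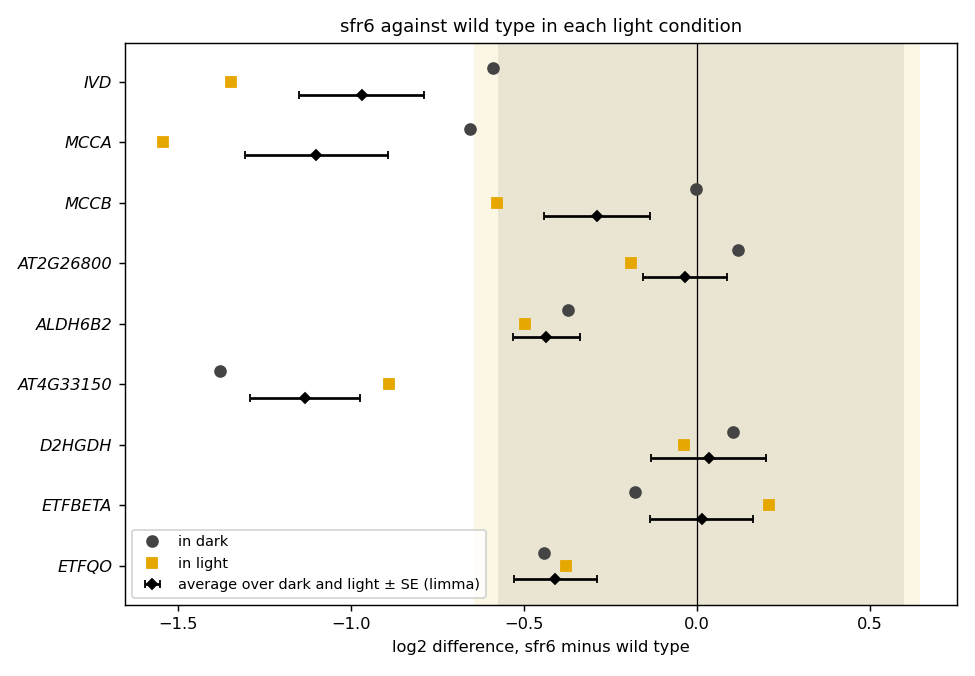
Log2 difference of sfr6 minus wild type for each gene in dark (circles) and in light (squares), with the limma average and its SE (diamonds); shading spans the 5th to the 95th percentile of all probe sets in each condition. MCCA and IVD lie furthest left in light, at -1.54 and -1.35, and AT4G33150 in dark, at -1.38.

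The 9 genes did not share a single profile. As a measure of likeness, log2 signals were centred on each gene's mean over the 4 arrays and the Euclidean distance between profiles was taken. Of 36 pairs the closest was ETFQO with ALDH6B2, at a distance of 0.15, followed by D2HGDH with AT2G26800, at 0.35. MCCA and MCCB were 1.498 apart, and the most distant pair was MCCA with D2HGDH, at 3.84. Distances were also taken to the mean profile of the 9 genes, which averages genes that rose with genes that did not. ETFQO lay closest to that mean, at 0.27. MCCA and D2HGDH, at 2.02 and 1.84, lay further from it than the median of 1.79 over 6461 other named probe sets. Those probe sets had all 4 signals above the floor.

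Among those probe sets the nearest to the mean profile was AT3G46600, at 0.05. It read 164 in sfr6 dark and 47.4 in sfr6 light, and 206 in wild-type dark and 72.3 in wild-type light. The next were AT3G61260, AT5G14120, AT3G60980, AT2G38820 and CSLA03, a cellulose synthase-like gene, at distances of 0.14 to 0.17. Their average dark effects ran from 1.52 to 1.74 on the log2 scale, and all 5 read lower in sfr6 in both conditions. Because the genes were picked by closeness to the mean profile, these values follow from the choice. With 4 arrays, a profile is described by few values, and many genes with a dark response can come close to it.

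Other genes of the same metabolism were taken from fixed lists by locus. In the list of other steps of branched-chain amino acid breakdown, 5 of 16 genes were measured, and 0 rose or fell by limma, with 1 of them, ATBCAT-5, at an unadjusted p under 0.05. ATBCAT-5, a branched-chain aminotransferase, read 128 in sfr6 dark and 163 in sfr6 light, and 127 in wild-type dark and 166 in wild-type light, an average log2 effect of -0.37 ± 0.13 (adjusted p 0.082). Whether ATBCAT-5 serves breakdown or synthesis was not examined, so its value may not describe a breakdown step. AT4G20930 read 33.7 to 44.3 on the 4 arrays, and AT1G50110 and AT5G09300 were above the floor on 1 array each. ETFALPHA is described above. The list's median average effect was -0.09, beside 2.01 for the 9 genes. That median is the value of AT5G09300 and so depends on the floor. Most genes of the list had no named probe set, so the median does not describe the rest of the route.

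In the list of other amino acid breakdown 4 of 25 genes were measured and 1 rose. That was MGL, methionine gamma-lyase, at 177 in sfr6 dark and 84.4 in sfr6 light, and 455 in wild-type dark and 91.4 in wild-type light. Its average log2 effect was 1.69 ± 0.28 (limma adjusted p 0.00698), and its response was 1.07 on the log2 scale in sfr6 and 2.31 in wild type, the larger in wild type as for AT4G33150. AT5G38710 was over the floor in wild-type dark alone, at 71.4, so it was at least 3.23-fold higher in dark there. Its average log2 effect, 0.85 ± 0.38, depends on the floor and did not pass. DELTA-OAT, an ornithine aminotransferase, and AT3G56840 did not pass either, with average log2 effects of 0.41 ± 0.17 and -0.28 ± 0.18.

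In the list of branched-chain and lysine synthesis 4 of 21 genes were measured and 1 rose, against the direction of the other 3. AT2G31810 read 967 in sfr6 dark and 203 in sfr6 light, and 1147 in wild-type dark and 289 in wild-type light. The dark signals were 4.77-fold and 3.97-fold above the light signals in sfr6 and wild type, an average log2 effect of 2.12 ± 0.11 (limma adjusted p 0.000253), close to that of ALDH6B2. AT3G58610, AT3G23940 and AT3G53580 did not pass, with average log2 effects of -0.27, -0.30 and -0.29.

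Of 15 genes in the list for peroxisomal beta-oxidation, AIM1 and ICL (isocitrate lyase) were measured and neither passed, at -0.13 ± 0.13 and -0.02 ± 0.24. ICL is not itself an enzyme of beta-oxidation, so AIM1 alone stands for that pathway. Of 16 genes by which electrons can enter or leave the mitochondrial chain outside its main complexes, 6 were measured and 2 fell. NDB2, an NAD(P)H dehydrogenase, read 59.6 in sfr6 dark and 136 in sfr6 light, and 40.3 in wild-type dark and 109 in wild-type light, an average log2 effect of -1.31 ± 0.17 (limma adjusted p 0.00295). NDC1, another such dehydrogenase, fell by 0.47 on the log2 scale (limma adjusted p 0.028). The other 4 did not pass. None of the 10 genes of the biotin list is analysed here.

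**Figure D4:**
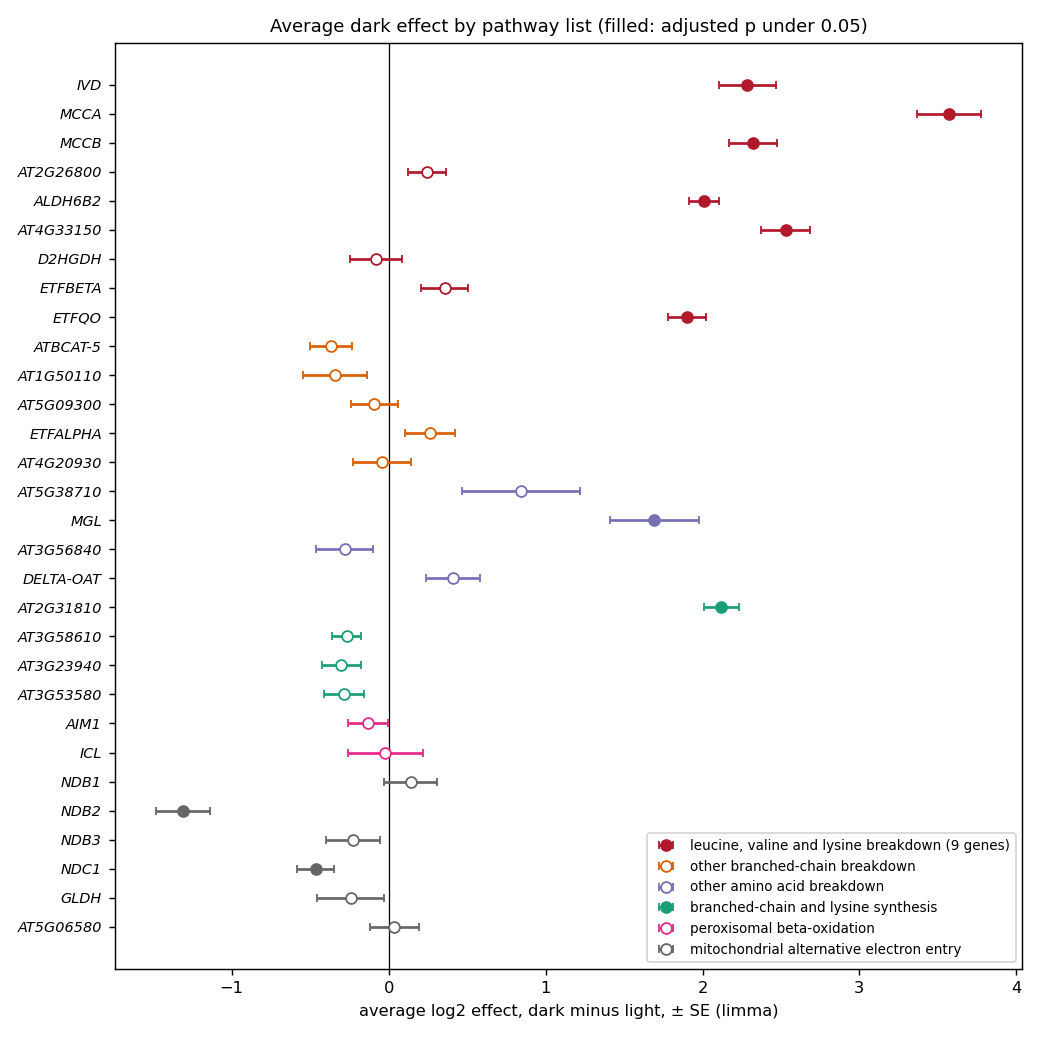
Average log2 effect of dark minus light with its SE for the 9 genes and for the measured genes of 5 further lists, with filled points where the adjusted p was under 0.05. Outside the 9 genes, MGL and AT2G31810 rose, NDB2 and NDC1 fell, and the other points lie between -0.37 and 0.85; AT1G50110, AT5G09300, AT5G38710 and 1 gene of the electron-entry list have signals under the floor, so their points depend on it.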

How the data were processed

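The deposited table holds linear signal intensity values, made with MAS5 per the submitters' processing notes (no version given). The mean signal without the lowest and highest 2% was 100 on each array, so the authors' values were already scaled. Of 22810 probe sets, 64 controls were left out. Signals under the 40th percentile of all signals (22.1) were set to that floor, log2 was taken, and 15121 probe sets over it on at least 1 array were tested. Average effects come from limma 3.58.1 (R 4.3.3; additive model, eBayes with an intensity trend, 5.15 prior degrees of freedom, Benjamini-Hochberg adjusted p under 0.05). Differences between arrays have no test and were counted from 2-fold. Array number limits precision. With 1 residual degree of freedom, the SEs and p-values rest mostly on the variance trend over all probe sets.

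Names come from the platform table, updated through RefSeq (TAIR10.1; 13436 of 13513 probe sets matched). All 9 members and the genes of the lists were named, by rule, where they passed the test or where a list had 5 or fewer measured genes, along with the 6 nearest profiles; the plot of lists shows every gene tested. Members and lists were chosen with earlier results of these data known. List loci without a description in these tables were placed from general knowledge. Sequences and promoter motifs were not used here. In 8 alternatives the floor, scaling, filter or variance model was changed. Figures were drawn with matplotlib 3.10.9.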

Additional observations from a re-analysis of the deposited data

Results flagged for a closer look

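For 3 genes the difference of sfr6 from wild type had opposite signs in dark and in light, with 1 array in each group. The log2 difference in dark minus that in light was -0.39 for ETFBETA, which read lower in sfr6 in dark and higher in light. It was 0.31 for AT2G26800 and 0.14 for D2HGDH, which read higher in sfr6 in dark and lower in light. None of these differences was tested. All 3 are genes without a called dark response, and each genotype difference was under 0.21 in size on the log2 scale.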

How the results depend on the processing

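MCCA, MCCB, IVD, ALDH6B2, ETFQO and AT4G33150 were called higher in dark under all 8 alternatives, with adjusted p from 2.1e-05 to 0.0034, and ETFBETA, AT2G26800 and D2HGDH under none. The number of the 9 genes called lower in sfr6, 1 in the results above, reached 3 when the floor was the 20th percentile, with spike-in centring and when all 4 signals had to be above the floor. It was 0 when the floor was the 60th percentile, with median centring and without the intensity trend. Over all probe sets the genotype calls, 63 higher and 130 lower, were 0 and 2 without the trend, 0 and 3 with the floor at the 60th percentile, 6 and 26 with median centring, 21 and 82 with quantile normalization, 138 and 204 with robust eBayes, 251 and 344 with the floor at the 20th percentile, 278 and 340 when all 4 signals had to be above it, and 803 and 213 with spike-in centring. With quantile normalization 1 gene, MCCA, passed 2-fold in its response difference (sfr6 minus wild type), at 1.03 on the log2 scale. Average genotype effects that changed sign were those of D2HGDH (-0.012 with quantile normalization), ETFBETA (-0.018 with median centring) and AT2G26800 (0.12 with spike-in centring), none of them called; the cause was not tested. Differences without a test were compared with the fitted SD of their probe set; 12 moved by more than that under some alternative, and 0 of those of 2-fold or more changed sign. Every member has 1 probe set, so no other could be tried. No paired analysis was possible because the replicate numbers pair no samples: each group has 1 array, and all share 1 number. Genotype is already a term of the model, which compares dark with light within each genotype.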
